A study of Rattus norvegicus with 120 samples.

Results

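The retinal pigment epithelium is the cell layer behind the photoreceptors, and 4 genes of its transport and clearance work were chosen by name: Best1, Ttr, Mertk and Slc16a8. Members were all probe sets annotated to one of these symbols alone. Of the 4 genes, 3 had such probe sets, out of 14217 genes with a probe set of their own: Ttr (1367598_at), Mertk (1390389_at, its main probe set because its mean was higher, and 1369382_at, its second) and Slc16a8 (1369480_at). Best1, a chloride channel of the basal membrane, was not analysed here. The 4 probe sets were read on 120 Affymetrix arrays, 1 for each 12-week-old male F2 rat of an intercross of the inbred strains SR/JrHsd and SHRSP, with the RNA of both eyes pooled. There was 1 group: no parental or treated animals were compared, and the F2 animals differed in the parental alleles they carried, which were not used here. The study assayed eye expression without replicate arrays, so the spreads given include the measurement error of an array as well as what set the animals apart. In a whole eye, fewer cells of a type and less RNA per cell cannot be told apart.

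Photoreceptors shed the tips of their outer segments every day, and the pigment epithelium engulfs them. Mertk is the receptor kinase that drives the engulfment after its ligands Gas6 and protein S (gene Pros1) bridge it to exposed phosphatidylserine, and rats that lack it lose their photoreceptors. Ttr is transthyretin, the carrier of thyroxine and of the retinol-binding protein Rbp4, secreted in the eye by pigment and ciliary epithelium and in the brain by choroid plexus. Slc16a8 (MCT3) is the monocarboxylate carrier of the basolateral membrane that passes the lactate of the outer retina on to the choroid. Mertk is also made by macrophages and Mueller glia, so its level in a whole eye is not that of 1 cell type.

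Marker genes of the pigment epithelium were read in the RNA. Rpe65, the isomerase of the visual cycle and the defining marker of this layer, lay between 8.79 and 10.18 on the log2 scale (median 9.76). Rlbp1 had a median of 10.37, Rgr of 10.87, Lrat of 7.78 and Rdh5 of 6.94, all above 4.28, the level (25th percentile of all values) that a probe set's mean had to reach to be tested. Markers of other sources of the members were read as well. Of 18 markers of ciliary epithelium and choroid plexus 15 were tested, with medians from 4.29 (Car12) to 11.27 (Igfbp2). Of microglia and macrophages 14 of 14 were tested, from 4.46 (P2ry12) to 10.07 (Lyz2). The lowest of these lay close to 4.28, and reaching that level does not by itself show that a cell type was present.

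The sequences upstream of the 3 genes are shown because a difference between the parental strains close to a gene is a usual source of expression differences in such a cross. Each line gives the 250 bases before the RefSeq transcription start in the GRCr8 assembly, 5′ to 3′ along the gene's own strand.
Ttr (GRCr8 chr18:12218508-12218757, + strand): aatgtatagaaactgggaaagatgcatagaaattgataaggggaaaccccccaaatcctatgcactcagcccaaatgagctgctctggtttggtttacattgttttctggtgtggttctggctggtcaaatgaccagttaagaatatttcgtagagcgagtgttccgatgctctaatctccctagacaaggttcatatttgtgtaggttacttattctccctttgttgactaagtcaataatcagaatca
Mertk (GRCr8 chr3:136392324-136392573, + strand): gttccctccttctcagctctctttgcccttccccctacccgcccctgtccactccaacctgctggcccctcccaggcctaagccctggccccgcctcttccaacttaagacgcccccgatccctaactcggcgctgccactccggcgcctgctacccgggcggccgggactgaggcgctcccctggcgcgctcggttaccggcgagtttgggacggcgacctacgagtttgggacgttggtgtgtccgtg
Slc16a8 (GRCr8 chr7:112702497-112702746, - strand): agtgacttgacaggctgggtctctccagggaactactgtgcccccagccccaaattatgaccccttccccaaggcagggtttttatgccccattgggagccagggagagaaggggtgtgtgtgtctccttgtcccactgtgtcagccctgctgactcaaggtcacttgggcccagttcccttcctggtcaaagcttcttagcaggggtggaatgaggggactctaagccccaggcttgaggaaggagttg
The windows differed in composition. Mertk had 68% G and C and 22 CpG dinucleotides, more CpG than 86.3% of 33469 rat promoters, Ttr had 40.4% and 3, and Slc16a8 had 57.2% and 0. None of them held TAATCC (a core read by the eye factors Otx2 and Crx), the E-boxes CATGTG and CACGTG (read by Mitf and related factors) or TATAAA, on either strand; capitals would have marked a match. Of all promoter windows of that length, 6.34% held the first, 12.1% and 5.59% the E-boxes and 12.9% the last. No match says only that these letters are not in these windows.

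Ttr had a bright probe set and one of the least variable ones in the eye. The sample titles hold an S code that the labels do not explain, and there S1 to S5 each go with 1 date. With the mean of each S code removed, the log2 level of Ttr ran from 11.88 in the lowest animal through a median of 12.31 to 12.48 in the highest. All but 1 animal lay within 0.38 of each other. Its mean stood above that of 99.6% of the 23326 probe sets tested, and its SD over animals was 0.089 (n = 120), against a median of 0.162 (0.0792 without animal 63, against 0.151). Only 2.92% of the tested probe sets had a smaller SD. The measured Ttr level thus varied little between animals. The listed genes Cst3 and Anxa2, with means of 12.34 and 12.33, had SDs of 0.0671 and 0.098. Whether the brightness of the Ttr probe set lowers its SD was not tested.

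The 2 Mertk probe sets gave different levels of 1 gene. The main one ran from 5.77 through a median of 6.80 to 7.22 (SD 0.183, 0.156 without animal 63), and the second from 4.66 through 5.04 to 6.26 (SD 0.186, then 0.147). The mean of the second lay only 0.78 above the limit for testing, and that of the main one 2.50 above it. Levels of different probe sets are not comparable as amounts of RNA, since each binds its target with its own strength.

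Slc16a8 was measured close to the limit for testing. Its level ran from 4.46 through a median of 4.85 to 5.51 (SD 0.134, 0.118 without animal 63), with a mean 0.56 above that limit and above that of 13.1% of the tested probe sets. Its SD exceeded that of 26.5% of them, so it varied less than most.

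The extreme values of all 4 probe sets came from 1 array, that of animal 63, which was scanned again according to its title. Its Ttr level of 11.88 was the lowest, 4.82 SD below the mean, with the next animal at 12.10, and its Mertk level was the lowest on the main probe set (5.57 SD below the mean) and the highest on the second (6.44 SD above it). Its Slc16a8 level was the highest, 4.97 SD above the mean. This array was also the lowest or the highest for 12237 tested probe sets (52.5%), and its median correlation with the other arrays, over the tested probe sets, was 0.911 where the median array had 0.982. The next animal, 15, held the extreme for 12.5%. The ranges, tests and correlations of the members are therefore given with all arrays and without animal 63, a choice made after seeing the data. The shares of variance and the shape over animals were examined with all arrays alone.

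A range of at least 2-fold between the lowest and highest animal was reached by 3 of the 4 probe sets: 2.75-fold for Mertk, 3.03-fold for its second probe set and 2.07-fold for Slc16a8. Ttr ranged 1.52-fold. Of all tested probe sets, 53.6% reached 2-fold, so the members' count is near the background. Without animal 63 no member reached it, at 1.99-fold, 1.81-fold, 1.58-fold and, for Ttr, 1.30-fold, while 35.5% of all probe sets still did. The other animals thus spanned less than a 2-fold difference for each of the 3 genes.

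**Figure D1:**
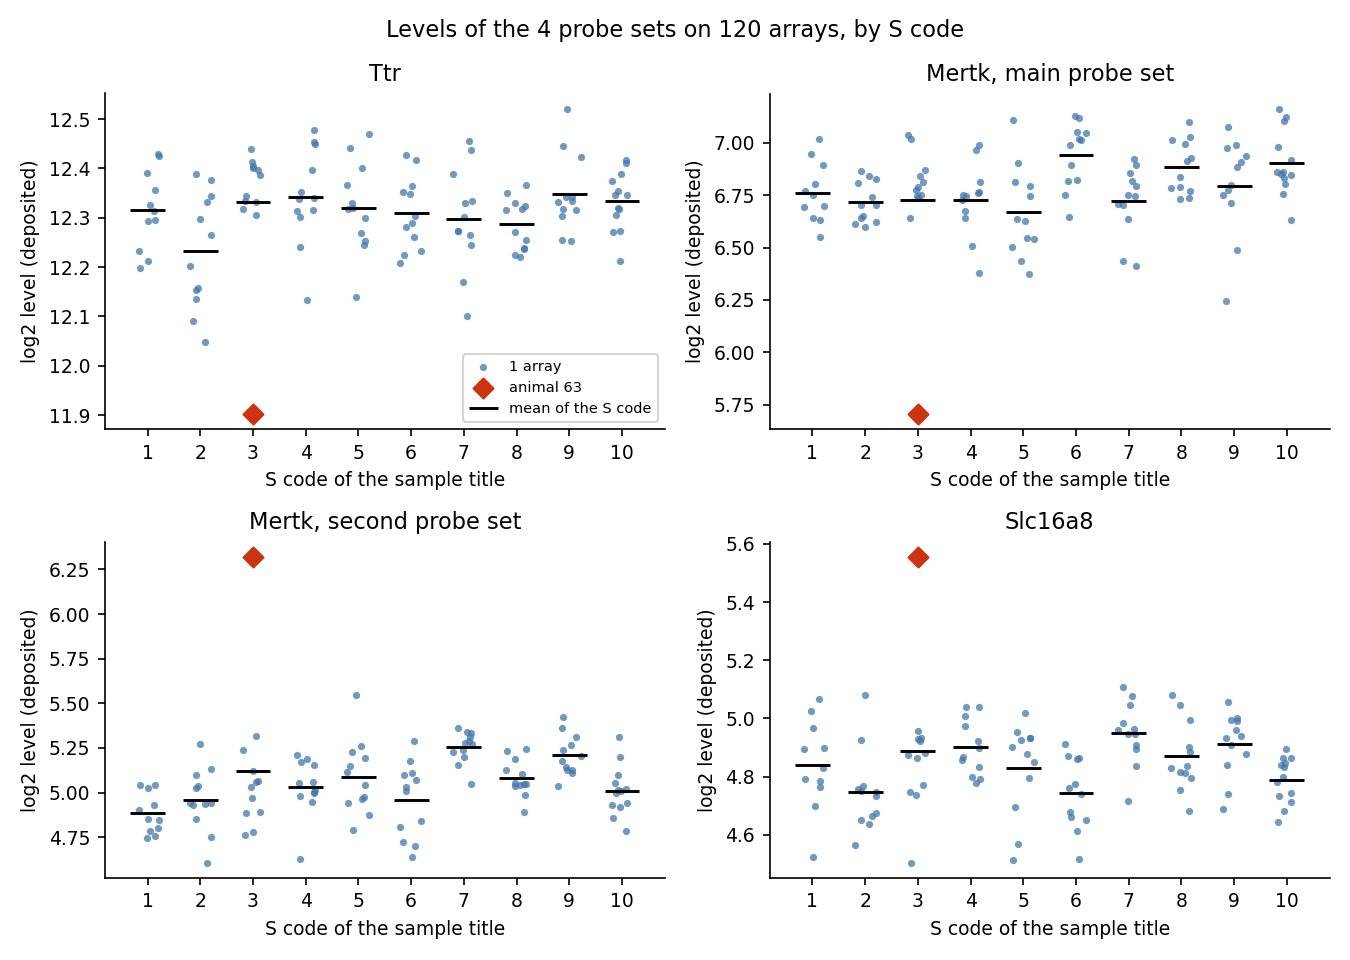
Deposited log2 level (vertical axis) of Ttr, both Mertk probe sets and Slc16a8 on each of the 120 arrays, by the S code of the sample title (horizontal axis); 1 point is 1 animal, bars are means of an S code and the red diamond is animal 63. The diamond is the lowest point for Ttr and for the main Mertk probe set and the highest for the other 2, and the S code means of Mertk run from 6.67 (S5) to 6.94 (S6).

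The arrays carry 10 S codes of 11 to 13 animals. S code means of the main Mertk probe set lay between 6.67 in S5 and 6.94 in S6 (limma's moderated F test, adjusted p = 0.00454, and 0.000375 without animal 63), a 1.21-fold difference. Those of the second ran from 4.88 in S1 to 5.26 in S7 (adjusted p = 0.000141, then 3.59e-07), so the codes that were lowest and highest on 1 Mertk probe set were not those of the other. Slc16a8 ran from 4.74 in S6 to 4.95 in S7 (adjusted p = 0.00305, then 0.000497). Ttr spanned 12.23 in S2 to 12.35 in S9, a 1.09-fold difference that did not pass with all arrays (adjusted p = 0.158) and did without animal 63 (0.0191). Differences between S codes passed for 92.1% of all tested probe sets, and for 92.9% without animal 63. With animal 63 kept, the share of the variance that went with the S code was lower for the members than for the median probe set (30.8%). It was 11.7% for Ttr, 19.1% and 25.5% for Mertk and 20.2% for Slc16a8. These shares were not computed without animal 63, so whether they stay lower was not tested. Without that array the moderated F rose from 1.51 to 2.37 for Ttr and from 3.07 to 3.75 for Slc16a8. For Mertk it rose from 2.92 to 3.85, and for its second probe set from 4.25 to 6.59.

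The titles also hold 22 L codes of 2 to 11 animals, likewise unexplained. With the S code as covariate, no member differed between L codes: adjusted p was 0.958 for Ttr, 0.473 for Mertk, 0.091 for its second probe set and 0.108 for Slc16a8, where 4.58% of all probe sets passed. Code L13, whose 3 animals include animal 63, had the lowest mean of Ttr (12.22) and Mertk (6.52) and the highest of the second Mertk probe set (5.57) and Slc16a8 (5.12). Without animal 63 those means of L13 were 12.39, 6.91, 5.22 and 4.92, and the adjusted p-values rose to 0.963, 0.587, 0.523 and 0.348, with 5.32% of all probe sets passing. The second Mertk probe set was sensitive to the fit, with an adjusted p of 0.0225 when S code 4 was left out and 0.0409 with no S covariate.

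In an F2 generation a single locus of large effect splits animals into 3 levels in the proportions 1:2:1. No member was called with that shape. The difference in Bayesian information criterion (BIC) in favour of the mixture was -12.85 for Ttr and -25.18 for Mertk. It was -38.94 for the second Mertk probe set and -20.03 for Slc16a8, where a value below 0 favours a single distribution. Animal 63 was kept, and the single distributions tried were normal, t and skew-normal. The heavy tails of a t distribution can take up 1 extreme array, so the size of these values does not describe the other animals. The call required a difference over 10, which 58 probe sets (0.249%) met. A locus of small effect would not be seen in this way, and genotypes were not used here.

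The members shared little variation once animal 63 was left out. Ttr and the main Mertk probe set had r = 0.405 and rho = 0.222 over 120 animals (permutation within S codes, p = 0.00095 and 0.0166; limma's adjusted p 0.000481 over all probe sets). Without animal 63 r was 0.212 and rho 0.174 (permutation p = 0.0263 and 0.0662; adjusted p 0.542), and without animals 63 and 28, the farthest from the Ttr median, r was 0.207. Within single S codes r ran from -0.25 to 0.86 with all arrays and was above 0 in 8 of 10. The relation of Ttr to Mertk therefore rests on 1 array as far as the threshold on limma's adjusted p goes.

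The 2 Mertk probe sets, which stand for the same gene, did not follow each other. Over all animals r was -0.336 and rho -0.0219 (permutation p = 0.0377 and 0.817; limma's adjusted p 0.000886). Without animal 63, r was -0.012 and rho 0.042 (permutation p = 0.901 and 0.663; adjusted p 0.942), and without animals 63 and 93 r was -0.0549. Within S codes r was above 0 in 4 of 10 with all arrays, from -0.82 to 0.49, and in 5 of 10 without animal 63, from -0.41 to 0.49. A statement about Mertk in these eyes therefore depends on which probe set is read, and the cause of the disagreement was not tested.

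The second Mertk probe set went instead with Slc16a8, the other low probe set. Their r was 0.498 and rho 0.279 with all arrays (permutation p = 7e-05 and 0.00325; limma's adjusted p 5.81e-07), and 0.296 and 0.242 without animal 63 (permutation p = 0.0026 and 0.0126; adjusted p 0.0277). It was the only one of the 6 pairs to pass by limma's adjusted p in both settings. Its r was above 0 in 8 of 10 S codes in each. Of all probe sets, 16.4% passed in the same direction with the second Mertk probe set and 18.3% with Slc16a8. Without animal 63 these shares were 5.71% and 13%. The pair did not pass in limma with ranks (adjusted p 0.0566) or without S code 3 (0.0624). Without animals 63 and 9 r was 0.308. Removing 5 principal components, which take out variation shared across much of the array, left 0.14 (adjusted p 0.739). Both lie close to the limit for testing, and the part of this in their relation was not tested.

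By limma's adjusted p the other 3 pairs did not pass without animal 63. The permutation p, which was not adjusted for the number of pairs, stayed under 0.05 for Ttr and the second Mertk probe set. Ttr and the second Mertk probe set had r = -0.441 and rho = -0.257 (permutation p = 0.00071 and 0.00671; adjusted p 0.000209), and -0.224 and -0.204 without it (permutation p = 0.0195 and 0.0318; adjusted p 0.509). For Mertk and Slc16a8 r was -0.348 and rho -0.111 (permutation p = 0.00805 and 0.241; adjusted p 0.000595), then -0.127 and -0.0827 (permutation p = 0.185 and 0.389; adjusted p 0.312). Ttr and Slc16a8 had r = -0.196 and rho = -0.058 (permutation p = 0.0816 and 0.542; adjusted p 0.091), then 0.0298 and -0.00833 (permutation p = 0.762 and 0.931; adjusted p 0.951). Without the 2 farthest animals the 3 values of r were -0.231, -0.149 and -0.0103. Within S codes without animal 63 they ran from -0.59 to 0.20, -0.66 to 0.39 and -0.28 to 0.39.

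**Figure D2:**
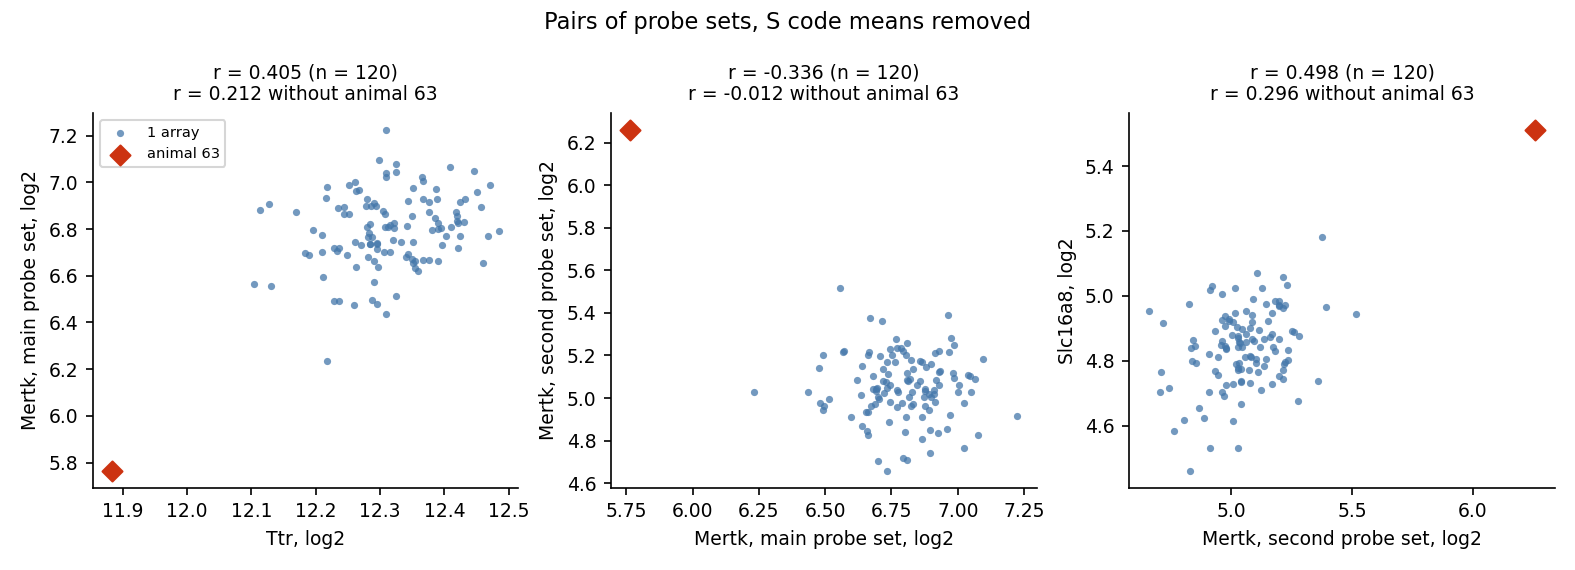
Log2 levels with S code means removed, 1 point per animal, for Ttr against Mertk, the 2 Mertk probe sets against each other, and the second Mertk probe set against Slc16a8; r stands above each plot with all 120 arrays and without animal 63 (red diamond). The diamond lies apart in each plot, and the r of the 2 Mertk probe sets goes from -0.336 to -0.012 without it.

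Each member was then set against every other tested probe set (limma, log2 level on the member's level and S code, 23325 probe sets, adjusted p threshold 0.05). For Ttr 28.6% of probe sets passed in the same direction and 7.27% in the opposite one, and without animal 63 these became 0.00429% (1 probe set) and 0.0171% (4 probe sets), with 1958 at an unadjusted p below 0.05. The main Mertk probe set went from 44.3% and 17.9% to 29.2% and 14.8%, so that much of the array moved with it in either case. Its second probe set went from 16.4% and 40.8% to 5.71% and 7.61%, with the directions the other way round. Slc16a8 went from 18.3% and 37.6% to 13% and 15.2%.

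Most of this breadth was shared with array-wide components. With these 5 components removed and animal 63 kept, 53 probe sets passed for Ttr, 208 for Mertk, 80 for its second probe set and 0 for Slc16a8, which had 1872 at an unadjusted p below 0.05 in limma. Those components held 19.2% of the variance of Ttr within S codes, 53.1% and 43.2% of that of Mertk and 43% of that of Slc16a8, where the median probe set had 43.3%. The first of them had an absolute r of 0.784 with the difference between the actin control probe sets of the 3′ and 5′ ends, a measure of RNA integrity and labelling. Ttr itself had r = 0.0877 with that difference, Mertk 0.242, its second probe set -0.32 and Slc16a8 -0.20, against a median absolute r of 0.303 over all probe sets. Ttr thus shared least of the 4 with array-wide variation. With that difference and the one for GAPDH as covariates, and all arrays kept, 59.7% of probe sets passed for Mertk (62.2% without the covariates). The shares were 51.9% (57.1%) for its second probe set, 53.2% (55.9%) for Slc16a8 and 35.6% (35.9%) for Ttr. Other measures of RNA integrity were not tested.

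**Figure D3:**
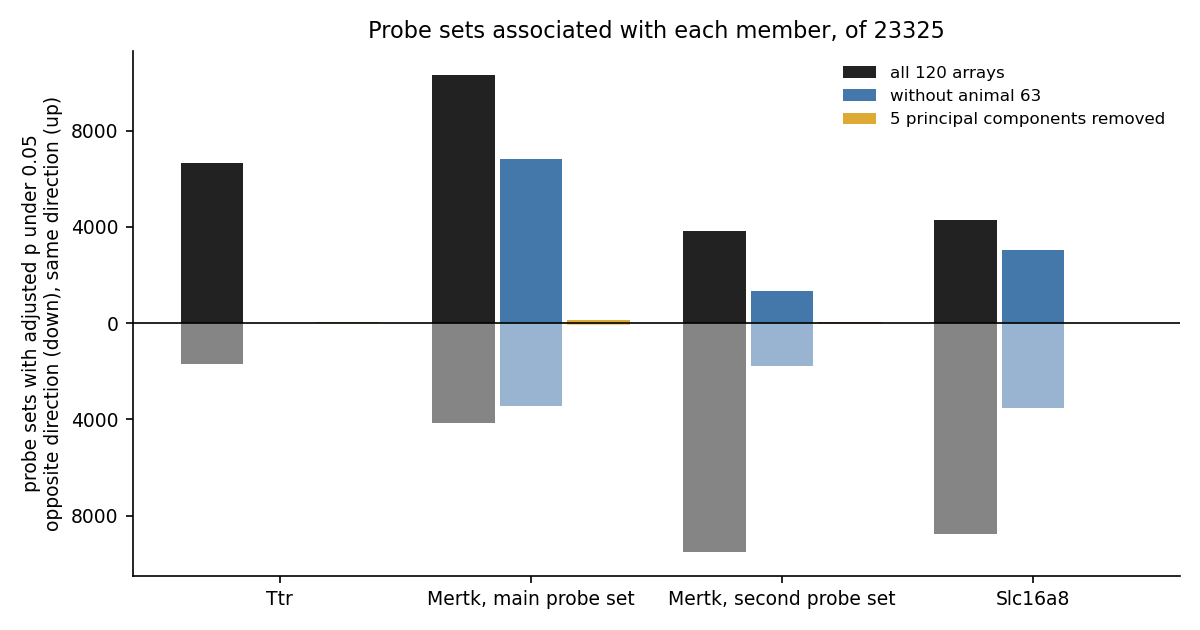
Number of probe sets, of 23325, with an adjusted p under 0.05 for each member, in the same direction above the line and the opposite direction below it, with all 120 arrays, without animal 63 and with 5 principal components removed. For Ttr the 6667 and 1696 probe sets with all arrays become 1 and 4 without animal 63, too few to be seen on this axis, while Mertk keeps 6809 and 3444.

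Of the 5 probe sets that passed with Ttr without animal 63, 2 belonged to Rab8b, a small GTPase of vesicle transport to the plasma membrane. Both were among the most variable probe sets of the eye. Without animal 63 probe set 1370539_at ran from 3.8 through a median of 5.53 to 6.70, and 1391347_at from 5 through 6.78 to 7.96. Each had an SD above that of over 99% of probe sets (99.3% and 99.4%). Animals with more Ttr had lower values on these 2 probe sets: r was -0.417 (limma, adjusted p 0.0347) and -0.40 (0.0486). With all arrays r was -0.398 and -0.353, and with 5 principal components removed the first still passed (r = -0.387, adjusted p 0.0329). The third Rab8b probe set, 1383709_at, had an SD of 0.155 and an r of 0.0631 with Ttr, so the relation belongs to the 2 variable probe sets and not to every measure of the gene.

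The unnamed probe sets 1397569_at (r = -0.415, adjusted p 0.0347) and 1384321_at (r = -0.449, adjusted p 0.017) followed the same pattern. They had r = 0.857 and 0.66 with the first Rab8b probe set, and 1397569_at ranged 31.1-fold between animals. Vps13c, a lipid transfer protein gene separated from Rab8b by 5 tested genes on the same chromosome (GRCr8), had r = 0.839 with Rab8b and -0.347 with Ttr, which did not pass (adjusted p 0.253). The 4 opposite probe sets are therefore not independent of each other. Hsbp1, a small binding partner of the heat shock factor Hsf1, was the 1 probe set in the same direction (r = 0.44, adjusted p 0.045), with an SD of 0.0624, even smaller than that of Ttr.

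With all arrays the genes most like Ttr were Selenof (r = 0.568, without animal 63 0.401), Hsbp1 (0.521, 0.44), St13 (0.52, 0.36), Med30 (0.516, 0.326), Cox8a (0.516, 0.385) and Coa3 (0.508, 0.336). Selenof is a selenoprotein of the endoplasmic reticulum, St13 a co-chaperone of Hsp70, and Cox8a and Coa3 serve cytochrome c oxidase. With 5 principal components removed Selenof, Hsbp1, Cox8a and Coa3 still passed (adjusted p 0.0321, 0.0321, 0.00792 and 0.0329), although only Hsbp1 did without animal 63. The most opposite were Ttc34 (-0.482, without animal 63 -0.271), LOC100909396 (-0.435, -0.128) and Gabrq (-0.432, -0.207), none of which passed without animal 63.

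Pigment cell genes leaned the same way as Ttr. Of 10 fixed genes of melanin synthesis and melanocytes, which the pigment epithelium shares in part, 7 were tested, and all 7 passed in the same direction with all arrays, where 28.6% of all probe sets did. Dct, dopachrome tautomerase, had a log2 level of 11.71 in the lowest animal, 12.18 at the median and 12.42 in the highest, and had r = 0.452 with Ttr (adjusted p 0.000207). Tyrp1 had r = 0.458, Tyr 0.398, the melanosome genes Pmel and Mlana 0.393 and 0.35, the neural crest factor Sox10 0.291 and Gpr143 0.269. Their median r was 0.393, beside 0.113 over all probe sets.

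Without animal 63 none of the 7 passed (limma, adjusted p 0.325 to 0.531, with 1958 of all probe sets at an unadjusted p below 0.05), so the call rests on that array. The 7 values of r stayed between 0.218 (Pmel) and 0.318 (Dct), with a median of 0.258 beside 0.0306 over all probe sets. With 5 principal components removed the median was 0.306 beside 0.0364. The 7 genes were read on the same arrays, so these are not 7 separate observations. The same genes had a median r of 0.108 with Mertk and 0.0171 with Slc16a8 without animal 63, and the difference between the members was not tested.

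Genes listed beside Ttr for carrier work showed no common direction. Of 8 tested genes for retinol and thyroid hormone carriers, 3 passed with Ttr in the same direction with all arrays: Rbp4 (r = 0.318), Crabp1 (0.398) and the thyroxine transporter gene Slco1c1 (0.387). In the opposite direction 2 passed: Stra6, the receptor of Rbp4 (-0.348), and Dio3, which inactivates thyroid hormone (-0.236). Of all probe sets 28.6% passed in the same direction and 7.27% in the opposite one. Without animal 63 none of the 8 passed, with r of 0.211 for Rbp4, 0.322 for Crabp1, 0.273 for Slco1c1, -0.242 for Stra6 and -0.132 for Dio3. With 5 principal components removed and animal 63 kept, Crabp1 alone of the 8 passed (limma, r = 0.37, adjusted p 0.046), where 53 of all probe sets did. Of 22 secreted and structural genes of the pigment epithelium, which include Dct and Pmel of the pigment cell list, 13 passed in the same direction (28.6% of all probe sets did) and 0 in the opposite one, among them Cst3 (cystatin C, r = 0.45) and Ptgds (0.332), and 0 without animal 63, where Cst3 had r = 0.332 and Ptgds 0.214. Markers of ciliary epithelium and choroid plexus, other sources of Ttr, passed in the same direction in 4 of 15 cases with all arrays (median r 0.128). That is near the 28.6% of all probe sets. Without animal 63 they passed in 0 cases (median r 0.0585).

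The genes of outer segment uptake moved with the main Mertk probe set in part. Of 21 tested, 14 passed in the same direction and 3 in the opposite one (all probe sets 44.3% and 17.9%), and 7 and 3 without animal 63, where 29.2% and 14.8% of all probe sets passed. The share of the list (7 of 21) was thus near that of all genes. Its median r was 0.248 with all arrays, beside 0.146 over all probe sets, and 0.102 beside 0.057 without animal 63.

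Ligands and receptors lay on both sides of the main Mertk probe set. The ligand gene Pros1 ran from 7.47 through a median of 8.31 to 8.69 and had r = 0.552 with Mertk, 0.395 without animal 63, and passed in both. Gas6, the other ligand, had 0.342 and 0.173, and the sister receptors Tyro3 (0.342, then 0.102) and Axl (0.248, then 0.0893) likewise did not pass once animal 63 was left out. The uptake receptor works with the integrin pair of Itgav and Itgb5 and its ligand Mfge8. Itgav had r = 0.481 and 0.365, while Itgb5 had -0.227 and -0.26 and Mfge8 -0.259 and -0.312, all of which passed in both settings. On this probe set the subunits of 1 receptor thus lay on opposite sides. With 5 principal components removed they did not, at -0.0806 for Itgav and -0.161 for Itgb5. On the second Mertk probe set the signs were reversed, at -0.369 and then -0.198 for Itgav and 0.185 and then 0.225 for Itgb5.

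Downstream, the kinase gene Ptk2 (focal adhesion kinase, r = 0.57, then 0.39) and the GTPase gene Rac1 (0.58, then 0.397), which remodel the cytoskeleton around the engulfed tip, were the nearest of the list with all arrays, and without animal 63 Pros1 lay between them. Rab7a of the late phagosome had 0.483 and 0.262, Atg5 0.332 and 0.28, and the lysosomal protease gene Ctsd -0.207 and -0.298. With 5 principal components removed no gene of the list passed, with a median r of -0.0336. The second Mertk probe set gave the opposite picture with all arrays, at 2 passing in the same direction and 13 in the opposite one, and without animal 63 at 2 and 2. All probe sets had the same tilt, at 16.4% and 40.8% and then 5.71% and 7.61%. On it Pros1 had r = -0.373 and then -0.105, and Mfge8 0.216 and then 0.281.

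**Figure D4:**
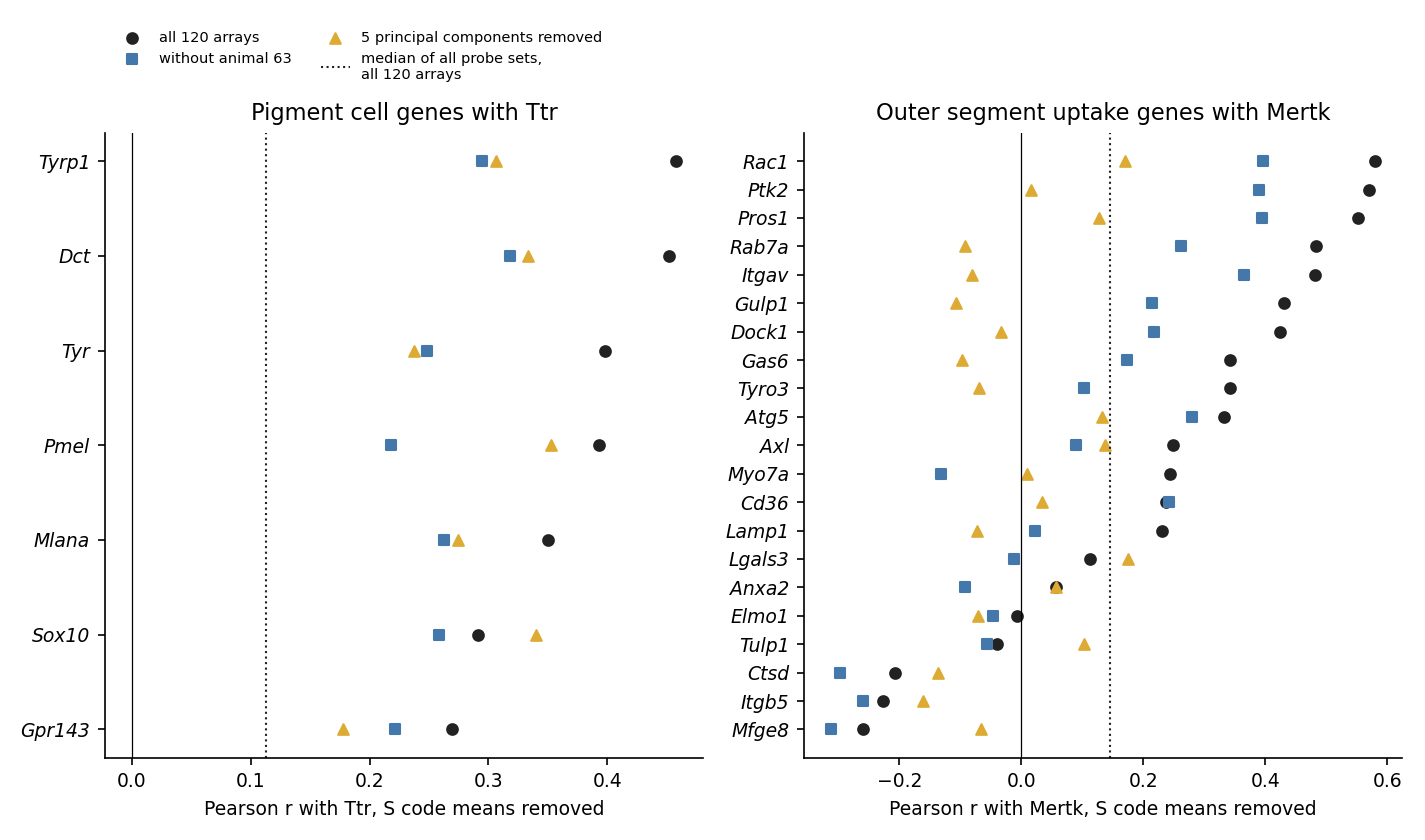
Pearson r with S code means removed (horizontal axis) of 7 pigment cell genes with Ttr (left) and 21 genes of outer segment uptake with Mertk (right), with all 120 arrays (circles), without animal 63 (squares) and with 5 principal components removed (triangles); the dotted line is the median r of all probe sets with all arrays. The 7 pigment cell genes lie above 0 in each setting, whereas the uptake genes spread from -0.259 for Mfge8 to 0.58 for Rac1 and scatter around 0 once the components are removed.

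Visual cycle genes were likewise set against the main Mertk probe set. Of 9 tested, 5 passed in the same direction and 1 in the opposite one with all arrays (all probe sets 44.3% and 17.9%), and 4 and 0 without animal 63: Rpe (r = 0.391), Lrat, which esterifies retinol (0.379), Rlbp1 (0.321) and Rgr (0.283). All probe sets passed in 29.2% and 14.8% of cases in that setting. Rpe65 had 0.36 with all arrays and 0.169 without animal 63. Rpe encodes an enzyme of the pentose phosphate pathway and came into the list by its name. Rlbp1 and Rgr are also made by Mueller glia, of whose 9 tested markers (Rlbp1 among them) 5 passed with Mertk without animal 63 and 1 in the opposite direction.

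Macrophage markers stood beside this. Of 14, 3 passed with the main Mertk probe set in the same direction without animal 63, namely Mrc1 (r = 0.431), Cd163 (0.394) and Aif1 (0.314), and 1, Itgam (-0.263), in the opposite one, where 29.2% and 14.8% of all probe sets did. Csf1r, a defining marker, had 0.123. The part of either cell type in the Mertk level was not tested.

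The genes most like the main Mertk probe set with all arrays were Acsl3 (r = 0.73, without animal 63 0.604), Aff4 (0.73, 0.611), Enpp4 (0.703, 0.568), Luc7l2 (0.685, 0.543), Ehmt1 (0.683, 0.549) and Tlk1 (0.682, 0.572), and on the opposite side Cd2 (-0.674, -0.49), Ggn (-0.663, -0.477) and Tbx3 (-0.657, -0.458). All 9 passed in both settings. Of these 9, Aff4 alone passed with 5 principal components removed (r = 0.36, adjusted p 0.0387). Without animal 63 the 6 nearest included Sult1a1 (0.581), a sulfotransferase gene, and B3galt5 (0.572), a galactosyltransferase gene, which kept r = 0.55 (adjusted p 6.85e-06) and 0.428 (0.00252) with the components removed.

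The genes most like the second Mertk probe set were a different group. Chaf1b (r = 0.645, without animal 63 0.436), Rfx8 (0.637, 0.377), LOC100909396 (0.627, 0.288), Dvl3 (0.621, 0.35), Sac3d1 (0.618, 0.371) and Runx3 (0.616, 0.264) led in the same direction, and Gzf1 (-0.651, -0.392), Alg14 (-0.646, -0.401) and Mid1 (-0.644, -0.421) in the opposite one. None of them was among the 9 of the main probe set. Dvl3, a Wnt signalling adaptor gene, was also among the 6 nearest to Slc16a8.

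Slc16a8 and the other lactate genes did not rise together. Of 7 tested partners, none passed in the same direction with all arrays and 4 in the opposite one: Ldhb, the lactate dehydrogenase subunit of oxidative tissues (r = -0.365), Emb, a chaperone of monocarboxylate carriers (-0.273), Slc16a7 (-0.263) and Slc16a1 (-0.23). The background was 18.3% and 37.6%. Bsg, basigin, the chaperone that carries Slc16a8 to the membrane, ran from 10.37 through a median of 10.94 to 11.14 and had r = 0.179 with Slc16a8 (adjusted p 0.0983).

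Without animal 63 the order changed. Bsg had r = 0.294 and passed (adjusted p 0.0129), while Emb (-0.263, adjusted p 0.026) and Ldhb (-0.241, adjusted p 0.0476) stayed on the opposite side. Slc16a1 (-0.14) and Slc16a7 (-0.178) did not pass. These 3 of 7 stand against a background of 13% and 15.2%, and with 5 principal components removed none passed (median r 0.0171).

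Ion and water transport genes of the pigment epithelium followed the tilt of all probe sets. Of 13 tested, 7 passed in the same direction as Mertk and 2 in the opposite one, against 2 and 7 for Slc16a8, beside backgrounds of 44.3% and 17.9% for the first and 18.3% and 37.6% for the second. The bicarbonate cotransporter gene Slc4a4 had r = 0.475 with Mertk and -0.392 with Slc16a8, carbonic anhydrase Car2 0.438 and -0.394, and the chloride channel gene Ano1 0.392 and -0.431. Car4 went the other way, at -0.486 and 0.494. Without animal 63 the counts were 4 and 3 for Mertk (background 29.2% and 14.8%) and 1 and 2 for Slc16a8 (13% and 15.2%), with Car2 at 0.295 and -0.257 and Car4 at -0.256 and 0.303, which still passed for both members. With 5 principal components removed no gene of the list passed for either.

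The genes most like Slc16a8 were Zap70 (r = 0.643, without animal 63 0.502), Dvl3 (0.626, 0.469), Cyth1 (0.619, 0.466), the potassium channel gene Kcnk2 (0.618, 0.462), Hhipl1 (0.617, 0.454) and Zfp362 (0.616, 0.452), with Tex30 (-0.654, -0.523), Gorab (-0.653, -0.513) and Gcc2 (-0.625, -0.488) on the opposite side. All 9 passed in both settings and none with 5 principal components removed (adjusted p 0.33 to 0.708). Zap70 is a signalling kinase of T cells, and Gorab and Gcc2 are proteins of the Golgi.

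Neighbouring genes were compared because a local difference between strains can reach more than 1 gene. The nearest tested genes on each side of Mertk are Anapc1 and Tmem87b. Tmem87b had r = 0.63 with the main Mertk probe set (adjusted p 9.25e-12) and 0.462 without animal 63 (1.61e-05), and Anapc1 -0.259 and -0.135. Bcl2l11 and Bub1 followed with 0.542 and 0.452, then 0.372 and 0.34, so 3 of 6 neighbours passed in the same direction without animal 63, where 29.2% of all probe sets did. On the second Mertk probe set Tmem87b had -0.567 and -0.321, and with 5 principal components removed r was 0.0917 with the main probe set, which did not pass (adjusted p 0.756).

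Ttr lies between Dsg2 and B4galt6, and none of its 6 neighbours passed without animal 63, with B4galt6 nearest at r = 0.271 (adjusted p 0.399; 0.305 with all arrays). Slc16a8 lies between Pick1 (r = 0.37, without animal 63 0.31) and Pla2g6 (0.386, then 0.258), which passed in both settings, where 18.3% and then 13% of all probe sets did in that direction. Tmem184b, the third gene beyond it, was opposite (-0.393, then -0.242; background 37.6%, then 15.2%). With 5 principal components removed none of the 6 passed, Pick1 having r = 0.154.

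A further probe set was annotated to Ttr together with the metallothionein genes Mt1 and Mt1f and was left out by the rule. It ran from 9.30 through a median of 9.71 to 10.08. Its r was 0.208 with the Ttr probe set and 0.688 with the metallothionein Mt2A (0.112 and 0.665 without animal 63), so its level went with metallothionein and hardly with Ttr.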

How the data were processed

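Total RNA was prepared with TRIzol and RNeasy columns, and targets were labelled with a one-cycle kit, per the labels' protocols. The deposited values are on a log2 scale and come from RMA (robust multi-array averaging), which the submitters' processing notes name. The sources used here do not give the RMA version, annotation or genome build. RMA corrects background, aligns arrays and combines the probes of a set, so shifts common to most genes can be lost and a probe that binds 1 strain's transcript poorly can look like a change in level. The arrays kept medians from 5.78 to 5.96 and 75th percentiles from 7.11 to 7.71. The number of arrays limits the precision.

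Probe sets (31099, of which 57 controls) were named through the platform annotation updated by Entrez number: 20826 had 1 symbol, 436 several and 9780 none. Symbols, neighbours and promoter sequences came from RefSeq tables of GRCr8, in which 20758 of the Entrez numbers were found. Probe sets with a mean of at least 4.283 (25th percentile) were tested, 23326 in all, and every other gene was represented by its highest-mean probe set.

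S code means were removed, or S was a covariate. limma 3.58.1 in R 4.3.3 gave the moderated tests, with Benjamini-Hochberg adjustment over all tested probe sets and a threshold of 0.05. For a pair the larger adjusted p of its 2 regressions is given. Pairs also had 100000 permutations within S codes (Python 3.11.15, two-sided). The fits and the mixture call were tested on simulated data. No 2 arrays were alike enough to be 1 sample (smallest SD of a difference 0.181). Each array is a separate animal, so the p-values measure the spread between animals and between arrays together.

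Named genes were the members, for each the 6 genes of most positive and 3 of most negative r (with and without animal 63), the genes of the marker and pathway lists, and the 3 tested neighbours on each side. The genes in the paragraphs on Rab8b were named after their values were seen, because so few probe sets passed with Ttr. The members and lists were chosen with earlier results of these data known. The closing section gives the alternatives tried.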

Additional observations from a re-analysis of the deposited data

How the results depend on the processing

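The S code calls of the 3 genes kept their side of the threshold in each alternative except for Ttr, which passed with array medians subtracted (F = 2.23), without the 3 rescanned arrays (2.33), without animals 63 and 15 (2.36) and without animal 63 (2.37). The L code result of the second Mertk probe set passed with no S covariate (F = 2.20) and without S code 4 (2.67). No member was called as a mixture with S code means kept or L code effects removed, although the BIC difference moved (second Mertk probe set from -38.94 to -13, Slc16a8 from -20.03 to -9.58 with L code effects removed), and the SD of each member stayed within 1.5 times its value (Mertk 0.126 with 5 components removed). Animal 63 was the array on which most other changes turned, and leaving it out was chosen after seeing the data. The number of arrays and the low level of Slc16a8 and of the second Mertk probe set are the limits of precision, and the cause of the changes below was not tested. No paired analysis was possible because all animals belong to 1 group and their numbers are not shared.

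The share of probe sets associated with Ttr (35.9%) was 19% at an adjusted p of 0.01, 10.3% with S code means kept, 0.442% with Spearman ranks, 0.227% with 5 components removed, 0.0129% without the 3 rescanned arrays, 0.0214% without animals 63 and 15 and 0.0214% without animal 63. For Mertk (62.2%) it was 0.892% with 5 components removed. For its second probe set (57.1%) it was 2.98% with ranks, 0.343% with components removed, 15.2% without the rescanned arrays, 16.5% without animals 63 and 15 and 13.3% without animal 63. For Slc16a8 (55.9%) the shares in that order were 22.3%, 0%, 25.8%, 34.5% and 28.2%. Leaving out each S code in turn gave 0.0171% to 41.2% for Ttr, 39.7% to 63.6% for Mertk, 3.57% to 58.4% for its second probe set and 21% to 58.8% for Slc16a8, the lowest in each case without S code 3, which holds animal 63.

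Of the pairs, r of Ttr and Mertk was 0.151 with 5 components removed, 0.21 without the rescanned arrays, 0.216 without animals 63 and 15, 0.212 without animal 63 and 0.222 with ranks, and 0.234 to 0.466 with an S code left out. In the same order r of Ttr and the second Mertk probe set was -0.307, -0.227, -0.224, -0.224 and -0.257 (-0.501 to -0.228). That of the 2 Mertk probe sets was 0.131, a reversal, then -0.0241, -0.0169, -0.012 and -0.0219 (-0.399 to -0.0384). That of Mertk and Slc16a8 was 0.139, a reversal, then -0.104, -0.16, -0.127 and -0.111 (-0.411 to -0.11). The second Mertk probe set and Slc16a8 had 0.14 with components removed and 0.279 with ranks, which did not pass (0.292 to 0.534, not passing without S code 3). Ttr and Slc16a8 ran from -0.251 to 0.0313 with an S code left out, and passed without S code 1 or 2.

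Over all probe sets, differences between L codes (1068) numbered 474 at 0.01, 3003 with no S covariate, 2123 with the actin and GAPDH differences as covariates, and 643 to 1774 with an S code left out. A 2-fold range (12506) was reached by 7901 with L code effects removed, 2854 with 5 components removed, 8251 without the rescanned arrays, 7805 without animals 63 and 15 and 8280 without animal 63. The mixture (0.249%) was called for 0.137% at a BIC difference over 20, 0.433% with S code means kept and 0.0729% with L code effects removed.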
